A study of Mus musculus with 2 samples.

Results

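The genes described here code for the general transcription machinery, and the measurements are E2F1 binding sites listed in mouse hepatocytes. E2F1 ChIP DNA was compared with input chromatin by the authors' peak caller. ChIP-seq, chromatin immunoprecipitation followed by sequencing, recovers the DNA fragments that an antibody pulls down together with its protein. Both samples were primary hepatocytes, the liver's chief metabolic cells, from C57Bl6J mice, and both came from cultures infected with the adenovirus Ad-E2F1 and harvested 36 h later. Every value therefore describes cells given extra E2F1 by a vector whose promoter the labels do not name, and no cells without the vector were analysed here. There is 1 ChIP record and 1 input record, and the authors deposited 1 peak list, so no value below has a replicate error and no test between samples was possible. The series text describes 2 replicates, each combining 2 ChIP experiments. The sources used here do not give age or sex of the mice. A peak list holds no expression values, so the cell type could not be checked against its markers. Depth of the libraries is unknown.

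Members were the genes in the list whose symbol starts with Polr2, Polr3, Gtf, Taf and a digit, or Med and a digit. They were 41 of the 5594 genes in the list, and they were named for 49 of its 5667 peaks. Members were thus selected on having a listed peak, a choice made by the peak caller's values for this same ChIP, so the presence and strength of these peaks are given as a description, with no test. The RefSeq gene table of GRCm38.p6 holds 100 protein-coding genes that the same prefixes match, and 41 of them had a listed peak under such a symbol. Over all 21900 protein-coding genes of that table the share was 24.7%. Here a peak counts as a promoter peak when its summit is at most 1000 bp from a transcription start site (TSS). Such peaks were found at 32 of the 100 genes, against 13.1% of all protein-coding genes. Polr2m has a promoter peak listed under its older symbol Grinl1a, so it is left out of both member counts. The shares over all protein-coding genes also match older symbols.

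RNA polymerase II transcribes messenger RNA genes, and its general factors place it at promoters. TFIID, made of the TATA-binding protein and its associated factors (TAFs), recognises the promoter, TFIIA and TFIIB stabilise it there, TFIIE and TFIIF load and prepare the polymerase, and TFIIH opens the DNA. Mediator is a large complex with head, middle, tail and kinase modules that passes signals from DNA-bound activators to the polymerase. RNA polymerase III transcribes transfer RNA and 5S ribosomal RNA genes with the help of TFIIIA, TFIIIB and TFIIIC. E2F1 is known for activating genes of S phase, and cells that prepare to divide also make more RNA.

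Promoter sequences of 6 members are shown. Taf6, Med9, Taf1 and Polr2j carry the 4 strongest member promoter peaks. Med9, Polr2j, Polr2c and Med14 had the only matches to an E2F-type motif among the 26 members with a promoter peak and an available sequence. The sequences are those of RefSeq, GRCm38.p6, from 250 bases before to 50 bases after the annotated start, 5′ to 3′ on the strand of the gene. Capitals mark the E2F-type motif (TTTCCCGC, TTTCGCGC, TTTGCCGC or TTTGGCGC) and a 6-base GC core (GCGC with a G or C on each side), on either strand. Both sets can overlap, as at Polr2c and Polr2j. For Taf6, which has more than 1 start in the table, a single window is shown.
Taf6, GRCm38.p6, chr5:138187177-138187476, minus strand: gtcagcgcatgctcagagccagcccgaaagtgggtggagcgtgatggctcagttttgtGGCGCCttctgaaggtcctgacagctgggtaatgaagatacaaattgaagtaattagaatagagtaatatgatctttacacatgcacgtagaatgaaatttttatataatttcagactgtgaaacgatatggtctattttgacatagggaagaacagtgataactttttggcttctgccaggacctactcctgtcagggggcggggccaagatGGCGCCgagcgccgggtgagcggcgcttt
Med9, GRCm38.p6, chr11:59947964-59948263, plus strand: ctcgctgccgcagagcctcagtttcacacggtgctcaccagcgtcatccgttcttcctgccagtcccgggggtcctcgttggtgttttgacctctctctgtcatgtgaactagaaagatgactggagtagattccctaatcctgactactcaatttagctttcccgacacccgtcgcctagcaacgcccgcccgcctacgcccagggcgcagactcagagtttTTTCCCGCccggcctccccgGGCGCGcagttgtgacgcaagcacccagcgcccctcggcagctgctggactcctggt
Taf1, GRCm38.p6, chrX:101532485-101532784, plus strand: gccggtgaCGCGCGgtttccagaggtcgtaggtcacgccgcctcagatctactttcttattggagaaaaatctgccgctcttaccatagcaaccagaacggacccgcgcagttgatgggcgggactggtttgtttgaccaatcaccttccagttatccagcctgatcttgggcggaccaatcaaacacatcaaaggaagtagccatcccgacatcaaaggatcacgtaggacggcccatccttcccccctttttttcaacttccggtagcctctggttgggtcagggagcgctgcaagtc
Polr2j, GRCm38.p6, chr5:136116441-136116740, plus strand: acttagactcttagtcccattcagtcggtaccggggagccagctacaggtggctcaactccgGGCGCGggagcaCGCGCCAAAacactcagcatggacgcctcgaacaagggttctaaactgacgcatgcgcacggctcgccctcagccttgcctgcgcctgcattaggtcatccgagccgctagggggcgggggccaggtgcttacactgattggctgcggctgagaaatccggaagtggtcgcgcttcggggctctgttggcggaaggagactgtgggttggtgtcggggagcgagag
Polr2c, GRCm38.p6, chr8:94857200-94857499, plus strand: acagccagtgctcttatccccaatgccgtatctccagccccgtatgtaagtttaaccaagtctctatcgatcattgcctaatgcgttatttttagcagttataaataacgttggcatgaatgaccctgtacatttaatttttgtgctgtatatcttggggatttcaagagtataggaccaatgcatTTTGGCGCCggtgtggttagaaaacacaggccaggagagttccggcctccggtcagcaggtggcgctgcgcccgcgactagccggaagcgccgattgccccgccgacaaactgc
Med14, GRCm38.p6, chrX:12761924-12762223, minus strand: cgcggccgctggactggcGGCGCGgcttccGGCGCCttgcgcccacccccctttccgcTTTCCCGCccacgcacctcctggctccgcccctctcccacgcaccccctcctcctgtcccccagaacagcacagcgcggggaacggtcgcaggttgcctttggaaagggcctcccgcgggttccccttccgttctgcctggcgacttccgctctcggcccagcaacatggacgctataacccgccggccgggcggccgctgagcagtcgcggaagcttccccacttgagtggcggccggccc

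Of the 49 member peaks, 32 (65.3%) lay at the promoter of the member itself, and these are the member promoter peaks described here. With the Taf6l peak at the promoter of Tmem179b, 33 lay at the promoter of any gene, or 67.3% (exact binomial 95% interval 52.5% to 80.1%, which covers counting error over peaks only). Over all listed peaks the share at the promoter of any gene was 46.1%. The fold enrichment of the member promoter peaks over input ranged from 3.62 to 36.75, with a median of 5.21 and quartiles of 4.60 and 7.67, and all 2612 promoter peaks had a median of 6.48 (quartiles 4.87 and 9.32). Folds, tag counts and false discovery rates are those the authors' caller gave each peak. Of the 32 member peaks, 12 (37.5%) were above the median of all promoter peaks, beside 49.9% of all promoter peaks. By rank among the 2612, 4 of the 32 stood above the upper quartile and 11 below the lower one. Tags did not follow the same order: the median was 194.5 tags in member promoter peaks and 169 tags in all promoter peaks. The called regions of the members were also longer, with a median of 2221 bp against 1897.5 bp in all promoter peaks, and the tags per kb of region were close, with a median of 82.0 in member promoter peaks and 81.1 in all promoter peaks. A fold of at least 10 was reached by 4 member promoter peaks, 12.5%, beside 21.9% of all promoter peaks. With the peaks elsewhere included, 7 of 49 (14.3%) reached it, beside 12.8% of all listed peaks. The median fold of the machinery's promoter peaks thus lay below that of all promoter peaks, but its order-statistic 95% interval, 4.75 to 7.43, includes 6.48. The exact binomial 95% intervals of the shares 37.5% (21.1% to 56.3%) and 12.5% (3.51% to 29.0%) likewise include 49.9% and 21.9%. By fold over all listed peaks, Taf6 ranked 10 and Med9 ranked 96.

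**Figure D1:**
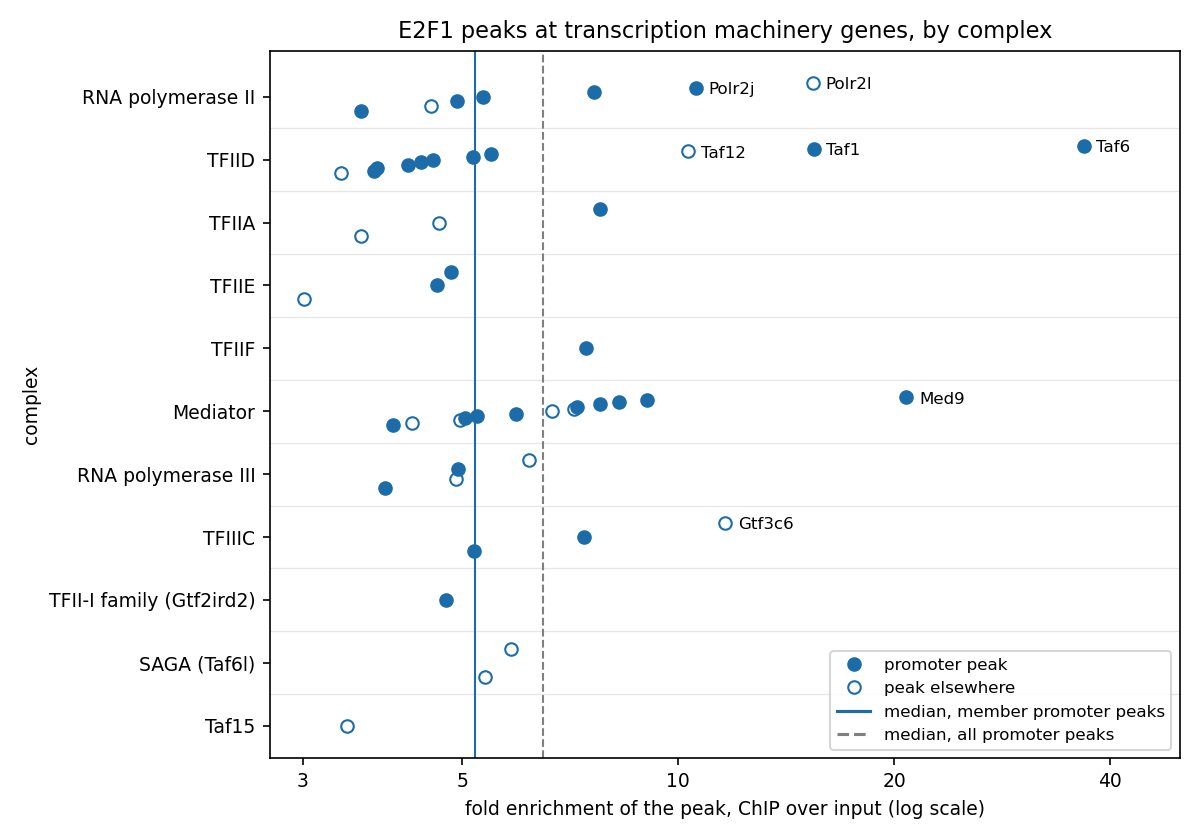
Fold enrichment over input of each of the 49 member peaks (log axis), 1 row per complex, with filled points for promoter peaks and open points for peaks elsewhere. The solid line is the median of the member promoter peaks (5.21) and the dashed line that of all promoter peaks (6.48). Taf6, Med9, Taf1 and Polr2j are the filled points past a fold of 10.

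TFIID had promoter peaks at 8 of its 13 standard subunits in the table and at Taf4b, a variant of Taf4 best known from gonads. Over all protein-coding genes the share with a promoter peak was 13.1%, and differences between complexes were not tested. The median fold of the 9 TFIID promoter peaks was 4.55. Taf6, whose product pairs with TAF9 through histone folds, held by far the highest fold of all members, 36.75 with 688 tags, at chr5:138628451-138628751 (mm9, the build of all peak positions given here). This peak ranked 10 of 5667 by fold, its window contained the TSS, and the promoter is shared with Cnpy4. Taf1, the largest subunit and scaffold of TFIID, followed with a fold of 15.44 and 168 tags at chrX:98727800-98728100. The remaining 7 promoter peaks were at or below a fold of 5.48, so Taf6 and Taf1 stood well above the rest of their complex.

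These weaker TFIID peaks had a fold of 5.48 at Taf12, 5.17 at Taf10, 4.55 at Taf4b, 4.38 at Taf8, 4.2 at Taf13, 3.8 at Taf9 and 3.77 at Taf2. TAF8 and TAF10 form a histone-fold pair, TAF2 contacts the core promoter, and TAF13 pairs with TAF11. Taf9 and its partner Taf6 were thus near opposite ends of the range. The Taf9 peak lay inside the gene, with the edge of its 301 bp summit window 534 bp downstream of the TSS, and it is also within promoter distance of Rad17, a gene of the DNA damage checkpoint. False discovery rates were 6.54% at Taf9 and 5.82% at Taf8, higher than at the other TFIID promoters. Taf12 had a second and stronger peak, 4266 bp before the TSS, with 615 tags and 10.33-fold enrichment at chr4:131825723-131826023, against 192 tags at its promoter. Taf4b also had a peak deep inside the gene, 58709 bp from the TSS, with a fold of 3.39. Taf3, Taf4, Taf5, Taf7 and Taf11 had no listed peak, nor had the variants Taf7l, Taf7l2 and Taf9b.

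Other genes with TAF symbols do not code for TFIID. Taf6l, which belongs to the SAGA coactivator, had a peak 9134 bp inside the gene with a fold of 5.85, at the promoter of Tmem179b, and another, 2317 bp before the TSS, with 5.38. Taf15, which codes for an RNA-binding protein, had a weak peak 32947 bp inside the gene with a fold of 3.46. The 4 genes Taf1a, Taf1b, Taf1c and Taf1d, which code for the TAFs of the RNA polymerase I factor SL1, had no listed peak. Over all protein-coding genes, 24.7% had one.

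By the symbol rule, RNA polymerase II itself had promoter peaks at 5 of 13 genes, beside 13.1% of all protein-coding genes. The median fold of these peaks was 5.35. Polr2j, which codes for RPB11, held a fold of 10.59 with 126 tags at chr5:136592203-136592503. Polr2c, which codes for RPB3, had 7.63 with 114 tags at chr8:97381137-97381437. RPB3 and RPB11 form the dimer on which the polymerase is assembled, and theirs were the 2 highest of the 5 folds. Polr2i, the gene of RPB9, which contributes to transcription fidelity, had a fold of 5.35 at a promoter shared with Tbcb. Polr2b, the gene of the second-largest subunit, had 4.92, and Polr2f, whose product RPB6 is shared by the nuclear polymerases, had 3.62 with a false discovery rate of 7.04%. The weakest of these peaks was therefore also among the least certain in the list, where the highest rate was 8.57%.

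Polr2l, the gene of the shared subunit RPB10, had a strong peak outside the promoter distance. Its fold was 15.43 with 169 tags at chr7:148662466-148662766, the near edge of its window lay 1434 bp before the TSS, and the same peak lies inside the neighbouring gene Tspan4. A second peak 2254 bp inside Polr2l had a fold of 4.53. Polr2a, which codes for the catalytic subunit, had no listed peak, and neither had Polr2d, Polr2e, Polr2g, Polr2h and Polr2k. Polr2m was listed under its older symbol Grinl1a, which the symbol rule does not match. That promoter peak had a fold of 27.98 with 669 tags at chr9:71333756-71334056, which would rank it behind Taf6 and ahead of Med9. Its product, known as Gdown1, binds RNA polymerase II and competes with TFIIF.

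Among the other general factors of RNA polymerase II, 4 of 13 genes had a promoter peak, beside 13.1% of all protein-coding genes. Gtf2a1, which codes for the large subunit of TFIIA, was the member with the most peaks. Its promoter peak had a fold of 7.78 and 366 tags at chr12:92828850-92829150, and 2 peaks inside the gene, at 1705 bp and 19665 bp from the TSS, had folds of 4.65 and 3.61. In this gene the fold was lower the farther the peak lay from the TSS. Gtf2f1, the gene of the large TFIIF subunit, had a fold of 7.43 with 125 tags. The TFIIE subunits Gtf2e1 and Gtf2e2 had folds of 4.83 and 4.62 with 232 and 215 tags, both at shared promoters, with Rabl3 and with 1700104B16Rik. Gtf2e2 also had the weakest member peak, with a fold of 3.01, 36507 bp inside the gene. TFIIB (Gtf2b) and the 5 TFIIH genes Gtf2h1 to Gtf2h5 had no listed peak, where 24.7% of all protein-coding genes had one. Gtf2ird2, a TFII-I family gene that is not part of these complexes, had a promoter peak with a fold of 4.75, while Gtf2i and Gtf2ird1 had none. Reads from near-identical copies in that family may not be separable, and the sources used here do not say how the authors treated them.

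**Figure D2:**
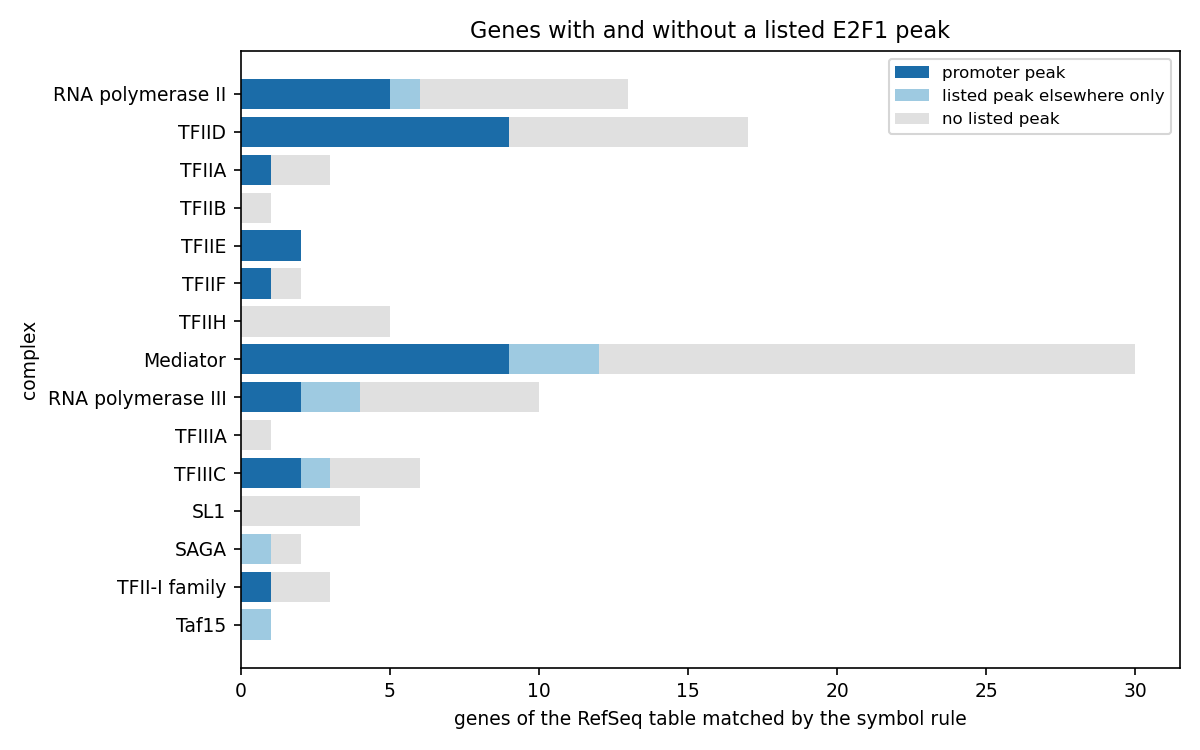
Number of RefSeq protein-coding genes matched by the symbol rule in each complex, split into genes with a promoter peak, with a listed peak elsewhere only and with no listed peak. Mediator has 9, 3 and 18 genes in these classes, TFIID has 9, 0 and 8, and TFIIH and SL1 have no gene with a listed peak. Polr2m is counted as without a peak, since the list uses its older symbol. Over all protein-coding genes, 13.1% had a promoter peak and 24.7% any listed peak.

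Mediator had promoter peaks at 9 of 30 genes, beside 13.1% of all protein-coding genes. The median fold of these peaks was 7.22, above the 4.55 of TFIID and the 5.35 of RNA polymerase II. Med9, a subunit of the middle module, held a fold of 20.8 with 290 tags at chr11:59761520-59761820 and ranked 96 of all listed peaks. Med19 and Med7, also of the middle module, had folds of 7.79 and 5.94. The Med7 peak had a false discovery rate of 6.82% despite its 197 tags, while that of Med19 had a rate of 0.08%. A second Med19 peak, with a fold of 4.26, lay past the 3′ end.

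In the head module the listed peaks were at Med8, Med18 and Med20, whose products form 1 submodule of the head in yeast. Med8 had a fold of 9.05 with 113 tags, and Med18 had 8.26 with 349 tags. Med20 had a fold of 6.67 with 279 tags, with its near edge 1472 bp before the TSS and so outside the promoter distance used here, though inside the authors' own promoter class. Med6, Med11, Med17 and Med22 of the head had no listed peak.

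Med14, the backbone that joins the modules, had a promoter peak of fold 5.24 and 148 tags. In the tail, Med30 had a promoter peak with a fold of 7.22, Med16 one with 5.05 and Med23 one with 4.01, and Med15, a frequent target of activators, had only a peak 32551 bp inside the gene with a fold of 4.97. None of the 4 kinase module genes with MED symbols had a promoter peak, beside 13.1% of all protein-coding genes with one. Med12l had a peak 77858 bp inside the gene with a fold of 7.17 on only 69 tags, and Med12, Med13 and Med13l had no listed peak. Of the same module, but outside the symbol rule, the kinase gene Cdk19 and the cyclin gene Ccnc had promoter peaks with folds of 7.38 and 5.7, and the kinase gene Cdk8 had no listed peak. Med1, the subunit best known for binding nuclear receptors in the liver, had no listed peak.

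Promoter peaks were listed at 2 of 10 RNA polymerase III genes and at 2 of 7 genes of TFIIIA and TFIIIC, where the share over all protein-coding genes was 13.1%. Of the polymerase III genes, Polr3e had one with a fold of 4.93 and 356 tags, and Polr3gl, which replaces Polr3g in one form of the enzyme, had one with a fold of 3.9. Polr3b, the gene of the second-largest subunit, had a peak 28948 bp inside the gene with a fold of 4.9. The promoter folds of Polr3e and Polr3gl were under the median of all promoter peaks, 6.48. The Polr3b fold was above the median of all listed peaks more than 20000 bp from a TSS, 3.81. TFIIIC, which binds the internal promoters of transfer RNA genes, had higher values than these polymerase III genes. Gtf3c5 had a promoter peak with a fold of 7.4, Gtf3c2 one with 5.19 and 395 tags in the longest region of any member promoter peak, 3517 bp, and Gtf3c6 a peak with a fold of 11.64 and 521 tags at chr10:39978408-39978708. Its near edge was 936 bp before the Gtf3c6 TSS, just outside the promoter distance of 850 bp for a window edge. Gtf3a, the gene of TFIIIA, had no listed peak.

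In 19 of the 32 member promoter peaks (59.4%) the 301 bp window contained the TSS, beside 53.6% of all promoter peaks. Another 7 lay upstream and 6 downstream of it. Just inside the promoter distance were Med23, with a window edge at 334 bp and a fold of 4.01, and Taf9 at 534 bp with 3.8. Just outside it were Gtf3c6 at 936 bp with a fold of 11.64 and Polr2l at 1434 bp with 15.43, so of these 4 peaks the stronger pair fell outside the limit. Between a window edge of 850 and 5000 bp the 7 member peaks had a median fold of 6.67, and the 493 listed peaks in that range had 4.72. Beyond 20000 bp inside genes the 6 member peaks had a median of 4.18, beside 3.81 over all such peaks. In both ranges member peaks were placed by the member's own TSS, and all listed peaks by the nearest TSS of a gene they name.

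**Figure D3:**
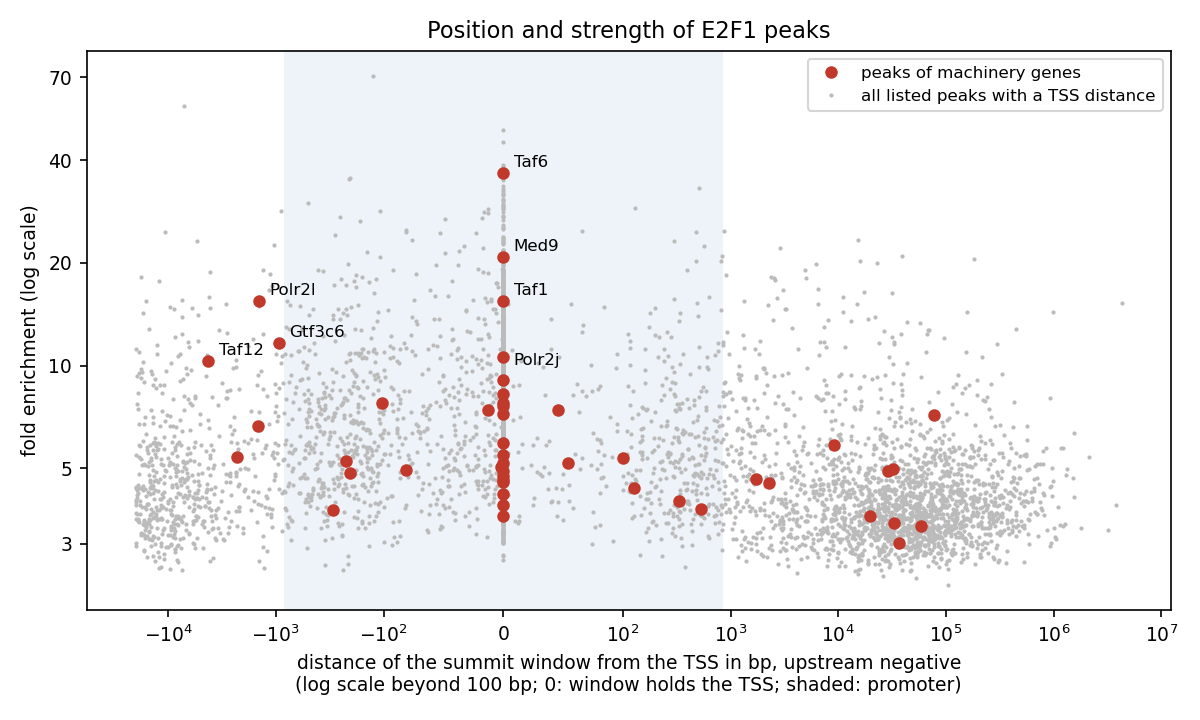
Fold enrichment (log axis) against the distance of the summit window from the TSS in bp (upstream negative, log scale beyond 100 bp) for member peaks (red) and all listed peaks with a TSS distance (grey). The shaded band is the promoter. Taf6, Med9, Taf1 and Polr2j lie at 0, while Gtf3c6, Polr2l and Taf12 have strong peaks upstream of the band.

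Promoter peaks shared with another gene made up 9 of the 32 (28.1%, exact binomial 95% interval 13.7% to 46.7%), beside 12.7% of all promoter peaks. Counted by gene, as the members are, the share was 22.5% of all 2943 pairs of a promoter peak and a gene. Among the pairs were Taf6 with Cnpy4, Taf9 with Rad17, Polr2b with 2610024G14Rik, Polr2f with 1700088E04Rik, Polr2i with Tbcb, Gtf2e1 with Rabl3, Gtf2e2 with 1700104B16Rik and Med19 with Tmx2. A fold at such a promoter belongs to the peak and cannot be assigned to either gene. With peaks that name only 1 gene, 20 of the 32 promoter genes were left, since a peak can also name a gene it lies in or near, and the strongest of them was then Med9. The promoter peaks of Taf8, Gtf3c2 and Gtf3c5 also named Ccnd3, Eif2b4 and Cel, though not at the promoters of those genes. Away from promoters, the peaks of Med12l and Taf15 also named Gpr171 and Gm11435. The inner Gtf2e2 peak also named Rbpms, and the Med19 peak past the 3′ end also named Zdhhc5. On the chromosomes, 2 pairs of members had peaks within 250000 bp of each other. Taf8 and Med20 were 127 kb apart on chromosome 17, and Taf12 and Med18 were 189 kb apart on chromosome 4.

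The promoter windows were searched for motifs on both strands, and a match describes letters only, not a site in use. RefSeq windows were found for 26 of the 32 members with a promoter peak. No window was matched for Gtf2e2, Med8, Med23, Med30, Taf2 and Taf4b. The E2F-type motif was present at 4 of the 26 genes (15.4%, exact binomial 95% interval 4.36% to 34.9%). It was present at 9.47% of 2355 genes with a promoter peak and at 3.29% of all 17492 protein-coding genes with a window. Among 59 genes of the machinery without a promoter peak, it was present at 2 (3.39%), Med6 and Polr2a. In the sequences above, Med9 has TTTCCCGC at base -27 relative to the annotated start (negative numbers lie before it), and Polr2c has TTTGGCGC at -64. Polr2j has GCGCCAAA, the reverse complement of TTTGGCGC, at -175, and Med14 has TTTCCCGC at -192. Taf6 and Taf1, with promoter folds of 36.75 and 15.44, had none of these 8-base letters in their windows, and each had the GC core.

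The shorter GC core was frequent everywhere: it was present at 16 of the 26 members (61.5%), at 61% of machinery genes without a promoter peak, at 67.9% of all genes with a promoter peak and at 39.6% of all genes. CCGGAAG, a sequence bound by ETS factors, was present at 13 of the 26 members, or 50% (interval 29.9% to 70.1%). Its share was 30.5% at machinery genes without a promoter peak, 24.2% at all genes with a promoter peak and 12.9% at all genes. Members with these letters were Taf1, Taf12, Taf13, Polr2c, Polr2f, Polr2j, Gtf2a1, Gtf2f1, Med14, Med18, Med19, Gtf2ird2 and Gtf3c2. TATAAA was present at 6 of the 26 members (23.1%), beside 7.77% of all genes with a promoter peak and 14.8% of all genes. At Taf13 it was at base -32, while at Taf6, Gtf2f1, Polr2c, Med16 and Med7 it was farther before the start, from -92 to -243. CCAAT was present at 10 (38.5%), beside 51.5% of all genes with a promoter peak and 42.3% of all genes. GGGCGG, the GC box, was present at 15 (57.7%), beside 74.1% and 49.2%. TGACGTCA was found at Gtf2f1 only, and the NRF1-type and YY1-type motifs, of 10 bases each, at 0 of the 26, beside 2.97% and 2.72% of all genes with a promoter peak. The CpG content was similar, with a median of 22 CpG per window in the members and 24 in all genes with a promoter peak, against 15 over all protein-coding genes. These shares rest on 26 genes and no test was run on them.

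**Figure D4:**
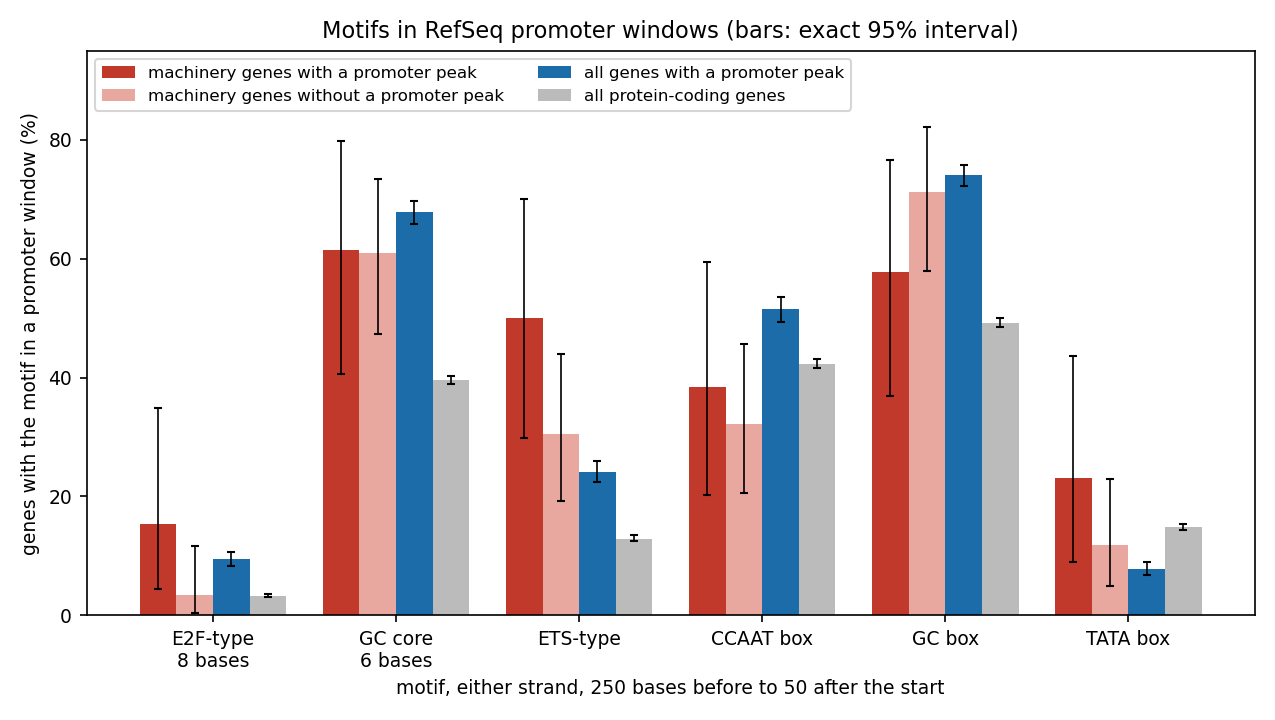
Share of genes with each motif in a RefSeq promoter window, for machinery genes with a promoter peak (n = 26), machinery genes without one (n = 59), all genes with a promoter peak (n = 2355) and all protein-coding genes (n = 17492). Error bars are exact binomial 95% intervals over genes. Motif names on the axis stand for letters anywhere in the window. The E2F-type motif was present at 15.4%, 3.39%, 9.47% and 3.29% of these sets.

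A list of 44 related genes that the symbol rule leaves out was described in the same way. Of these, 12 (27.3%) had a promoter peak, beside 13.1% of all protein-coding genes. The median fold of these peaks was 5.53. The groups within the list are small, and differences between them were not tested. Tbp, the TATA-binding protein at the centre of TFIID, had a fold of 4.18 with 205 tags. Of 7 genes of DSIF, SPT6 and NELF, factors that act on the polymerase shortly after initiation, 4 had a promoter peak. The DSIF subunit Supt4a, listed as Supt4h1, had a fold of 10.72, and the NELF subunits Nelfe (Rdbp), Nelfb (Cobra1) and Nelfcd (Th1l) had 6.14, 4.78 and 4.64, while Supt5, Supt6 and Nelfa had no listed peak. Of 10 genes of P-TEFb and other elongation factors, 1 had a promoter peak, Ell, with a fold of 8.54, and Cdk9, Ccnt2, Larp7, Ell2 and Ell3 had no listed peak. Of the TFIIH helicases and kinase subunits Ercc2, Ercc3, Cdk7, Ccnh and Mnat1, none had a promoter peak, as for the other TFIIH genes. Cdk7 had a peak in its 3′ untranslated region with a fold of 4.17, and Mnat1 one deep inside the gene with 4.41. Hexim1, an inhibitor of the elongation kinase P-TEFb, had no promoter peak and was named for a strong peak beyond its 3′ end, with 33.18-fold enrichment, 545 tags and a listed distance of 13207 bp. The polymerase III repressor Maf1 had a promoter peak with a fold of 5.67, and Snapc1 of the small nuclear RNA factor SNAPc one with 4.35. The TFIIIB genes Brf1, Brf2 and Bdp1 had no listed peak. The mitochondrial transcription factor Tfam had a promoter peak with a fold of 5.38 and a stronger one 3708 bp inside the gene with 12.88, while the mitochondrial polymerase gene Polrmt had none.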

How the data were processed

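E2F1 ChIP and input libraries of primary mouse hepatocytes were the samples. The submitters' processing notes name Bowtie2 (2.1.0) and the builds mm9 and NCBIM37. MACS was the peak caller, per the file headers. The sources used here do not give its version or settings, or say whether replicates were pooled. Each peak in the deposited list has a tag count for the called region, a pileup signal, a ratio of ChIP to background (fold), a score (10 times −log10 of the p-value from the caller) and a false discovery rate in percent, all made by the authors. It skips 13241 of 18908 serial numbers of the caller, so a gene without a listed peak is not shown to be unbound. Coordinates are counted from 1.

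Members were matched by symbol, and all 41 were found in the RefSeq gene table of GRCm38.p6. Genes and distances are the authors' assignments, with distances read from the edge of a 301 bp window around the summit. Distances on entries past a gene's 3′ end were not used as distances to a TSS. Promoter sequences came from RefSeq, GRCm38.p6. No coordinates were converted between builds. The motif search was tested on simulated sequences. Members, lists and motifs were chosen with earlier results of these data known, and no test across features was run. Members with a peak are named, except for a result not reported here, and the genes of each complex without one are named or counted. Analysis used Python 3.11.15, pandas 2.3.3, NumPy 2.4.6 and SciPy 1.17.1.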

Additional observations from a re-analysis of the deposited data

How the results depend on the processing

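The median fold of member promoter peaks (5.21) stayed inside its order-statistic 95% interval, 4.75 to 7.43, in all 7 alternatives run, between 5.24 and 7.31. The highest, 7.31, came with a false discovery rate of at most 1% and lay above the 6.48 of all promoter peaks without that cut. No median of all promoter peaks was taken with the cut. The share of member promoter peaks that lie at a promoter of another gene was 20.6% to 30.8% in the 6 alternatives run. The number of members with a promoter peak (32) was 22 with a false discovery rate of at most 1% and 20 with peaks that name a single gene. The share of member peaks at the member's own promoter (65.3%) was 79.6% with promoters of 5000 bp and 78.6% with a false discovery rate of at most 1%. Promoter peaks with a fold of at least 10 were found at 4 members, and at 7 with promoters of 5000 bp, which adds Polr2l, Gtf3c6 and Taf12. The share of windows with an E2F-type motif (15.4%) was 61.5% with the 6-base core in place of the 8-base letters. The core was present at 67.9% of all genes with a promoter peak, and the 8-base letters at 9.47%. The alternatives for peaks were run over the members only, so these shares and counts have no value over all peaks beside them. With 1 peak list, no replicate could be left out. No paired analysis was possible because the list is not split by replicate. Whether depth limited the weak peaks could not be examined, since the sources used here give no read totals.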
